A study of Mus musculus with 6 samples.

Results

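Caly, Nrgn, Ddn, Camk2a, Camk2n1 and Icam5 are 6 neuronal genes, most of them known to be richer in forebrain than in cerebellum, out of the 46983 genes counted in mouse cerebellum. They were chosen by their counts in the comparison described here, whose earlier results were in view. The differences between the groups given for these 6 genes are therefore a description. Where calls of these genes at a threshold are given, they are not read as tests of them. The comparison was between 3 libraries labelled Slc7a5-KO (Tie2-Cre with both Slc7a5 alleles floxed) and 3 labelled WT (Tie2-Cre with 1 floxed allele), all C57BL/6J at postnatal day 60. Tie2-Cre recombines in endothelial and blood lineages and was carried by both groups, so the WT animals also had Cre and a floxed allele. The product of Slc7a5, LAT1, carries large neutral amino acids across the blood-brain barrier. Whole cerebellum was measured, in which more cells of a type and more RNA per cell cannot be told apart.

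These genes act in and around dendrites and their vesicles. Calmodulin carries the calcium signal of a synapse to CaMKII, a kinase built from subunits of which Camk2a encodes the alpha form, and Nrgn encodes neurogranin, a small protein with an IQ motif that holds calmodulin when calcium is low. Camk2n1 encodes an inhibitor of active CaMKII. Ddn encodes dendrin, a cytoplasmic protein of dendrites. Icam5 encodes telencephalin, a dendritic adhesion molecule of forebrain neurons that binds leukocyte integrin, and Caly encodes calcyon, a neuronal vesicle protein that binds clathrin light chain and was described as a partner of dopamine receptors. In cerebellum the beta form of CaMKII is the main one, and the neurogranin relatives Pcp4 and Pcp4l1 are abundant.

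The regions around the transcript starts of Caly, Nrgn and Icam5 are shown, the 3 members matched in the promoter table used, so that the letters before their starts can be compared. The windows run from 250 bases before to 50 bases after the start (RefSeq, GRCm38.p6), each read on the strand of its gene, and capitals mark the motif found. They are chr7:140082499-140082798 (minus) for Caly, chr9:37552696-37552995 (minus) for Nrgn and chr9:21031788-21032087 (plus) for Icam5.
Caly: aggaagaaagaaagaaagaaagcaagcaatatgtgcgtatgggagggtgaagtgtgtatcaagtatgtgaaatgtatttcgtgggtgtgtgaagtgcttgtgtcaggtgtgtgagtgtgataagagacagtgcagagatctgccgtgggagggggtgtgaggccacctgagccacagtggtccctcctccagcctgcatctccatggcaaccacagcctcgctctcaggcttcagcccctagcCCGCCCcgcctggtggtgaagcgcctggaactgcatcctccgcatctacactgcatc
Nrgn: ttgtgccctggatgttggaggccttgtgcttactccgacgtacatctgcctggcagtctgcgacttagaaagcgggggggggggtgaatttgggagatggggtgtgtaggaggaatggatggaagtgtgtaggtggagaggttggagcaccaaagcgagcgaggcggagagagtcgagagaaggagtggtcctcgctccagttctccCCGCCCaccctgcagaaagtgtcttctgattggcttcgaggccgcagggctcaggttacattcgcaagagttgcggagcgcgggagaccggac
Icam5: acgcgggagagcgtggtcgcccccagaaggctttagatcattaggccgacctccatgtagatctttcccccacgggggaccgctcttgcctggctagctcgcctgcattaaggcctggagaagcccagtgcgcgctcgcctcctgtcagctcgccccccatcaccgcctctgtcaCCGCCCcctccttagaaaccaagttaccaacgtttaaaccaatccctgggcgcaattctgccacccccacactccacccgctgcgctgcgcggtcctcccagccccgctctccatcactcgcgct
Each window held 1 match to the GC box GGGCGG, read as CCGCCC on the gene's strand. It lay 2 to 7 bases before the start in Caly, 38 to 43 bases before it in Nrgn and 70 to 75 bases before it in Icam5. The GC box is common, with a match in 35.7% of the 32851 windows of this length. Both strands were also searched for the ATF4 composite element TGATGNAA (a match in 3.97% of windows), the cyclic AMP response element TGACGTCA (1.79%) and its shorter core TGACG (20.8%), which lies within it. The EGR site GCGNGGGCG (5.55%) and the MEF2 site (3.69%), read as CTA and TAG with 4 bases of any kind between them, completed the search. None of these 5 had a match in the 3 windows, which says only that the letters are not there. A second Caly start, at chr7:140082252-140082551, likewise held 1 GC box and none of the other 5 motifs.

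Reads assigned to genes numbered 13438182 to 31077690 per library labelled Slc7a5-KO and 27672205 to 34160856 per WT library, and replicate 3 of the Slc7a5-KO group was the shallowest. Slc7a5 itself was at 164, 59.4 and 118 CPM (reads scaled to a common library size, with TMM factors) in replicates 1 to 3 labelled Slc7a5-KO. It was at 72.0, 66.3 and 43.2 CPM in WT, so the groups overlapped and its transcript was on average not lower under the Slc7a5-KO label. Whole cerebellum also holds cells outside the lineages in which Tie2-Cre recombines, so these counts cannot decide whether the labels hold. The labels name the libraries throughout and set every direction given. Slc7a5-KO replicate 2 had 1755 genes at 1 or 2 reads, against 839 to 1018 in the other 5 libraries. Slc7a5-KO replicate 3 stood apart on the first principal component, at 55.6 against -15.7 to -6.71 in the other 5. By Xist and Y-linked genes, Slc7a5-KO replicate 2 was the only male of its group, and WT replicate 2 the only female of the WT group. Over all genes tested, edgeR called 8 genes higher (0.0475%) and none lower at an adjusted p of 0.05, with 582 higher (3.45%) and 466 lower (2.77%) at an unadjusted p of 0.05, 6.22% in all.

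Of the 6 genes, 5 were higher in every library labelled Slc7a5-KO than in any WT library, and Camk2n1 was not. The groups were apart in that direction for 5.93% of all 16851 genes tested, and in the other for 5.54%. Caly was the 1 member called at the adjusted threshold. Since these values chose the members, neither count is read as a result.

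Caly (ENSMUSG00000025468, GRCm38 chromosome 7, 140069880 to 140082548, minus strand, protein-coding) was at 126, 116 and 154 CPM in Slc7a5-KO replicates 1 to 3, against 68.5, 80.8 and 77.0 CPM in WT replicates 1 to 3. The means were 132 ± 19.9 CPM in Slc7a5-KO and 75.4 ± 6.29 CPM in WT (SD, n = 3 libraries each), a log2 fold change of 0.80 ± 0.14 (here and below ± after a log2 value is its standard error). The groups did not overlap, Slc7a5-KO replicate 3 was highest, and the lowest Slc7a5-KO library lay well above the highest WT one. Each value rested on 2094 to 4061 reads. The fold stayed between 0.68 and 0.89 when any 1 library was left out, but Caly kept its call only without Slc7a5-KO replicate 1 or replicate 2, and lost it without Slc7a5-KO replicate 3 or any 1 WT library. It was also not called with limma-voom, with a sex term or with a replicate block. Slc7a5-KO replicate 3, the highest library for Caly, was the highest for 19.9% of all genes.

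Nrgn (chromosome 9, 37544492 to 37552904, minus strand) was at 51.8, 73.4 and 64.5 CPM in Slc7a5-KO replicates 1 to 3 and at 35.5, 44.0 and 34.3 CPM in WT. The log2 fold change was 0.74 ± 0.17, and 0.61 ± 0.18 without Slc7a5-KO replicate 2, the highest library. Slc7a5-KO replicate 1 lay nearest to WT, above its highest library by less than the WT libraries differed among themselves.

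Camk2a (chromosome 18, 60925618 to 60988152, plus strand) was at 229, 409 and 286 CPM in Slc7a5-KO replicates 1 to 3, against 187, 205 and 189.9 CPM in WT. The log2 fold change was 0.67 ± 0.17. WT libraries lay close together, whereas Slc7a5-KO replicate 2 had the highest level by a wide margin. Without it the fold was 0.40 ± 0.14, more than 1.5 times smaller, and without Slc7a5-KO replicate 1 Camk2a was called too, at 0.84 on the log2 scale.

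Camk2n1 (chromosome 4, 138454314 to 138460123, plus strand) was at 159.7, 206 and 164 CPM in Slc7a5-KO replicates 1 to 3 and at 172, 172 and 164 CPM in WT. The groups overlapped, and the log2 fold change was 0.06 ± 0.13. Slc7a5-KO replicate 2 was again the highest, and the other 2 Slc7a5-KO libraries lay within or below the range of the WT libraries. Without replicate 2 the fold change was -0.07 ± 0.13, on the other side of 0.

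Ddn (chromosome 15, 98803777 to 98809490, minus strand) was at 7.24, 54.0 and 6.76 CPM in Slc7a5-KO replicates 1 to 3, from 234, 1444 and 92 reads. WT libraries were at 2.03, 5.34 and 3.40 CPM, from 72, 148 and 94 reads. The groups did not overlap, but 1 library held most of the difference. The log2 fold change was 2.67 ± 1.12 over all libraries and 0.96 ± 0.44 without Slc7a5-KO replicate 2.

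Icam5 (chromosome 9, 21032073 to 21039036, plus strand) was at 3.13, 9.64 and 2.4996 CPM in Slc7a5-KO replicates 1 to 3, from 101, 258 and 34 reads, against 0.565, 0.902 and 1.48 CPM in WT, from 20, 25 and 41 reads. The log2 fold change was 2.38 ± 0.59, and 1.51 ± 0.78 without Slc7a5-KO replicate 2, which was again the highest. Genes on the opposite strand overlap Icam5, and the opposite strand held 101, 139 and 78 reads over it in Slc7a5-KO replicates 1 to 3 and 142, 44 and 84 reads in WT. Counting both strands together gave 1.28 ± 0.46, so the size of the Icam5 difference depended on the strand-specific count.

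**Figure D1:**
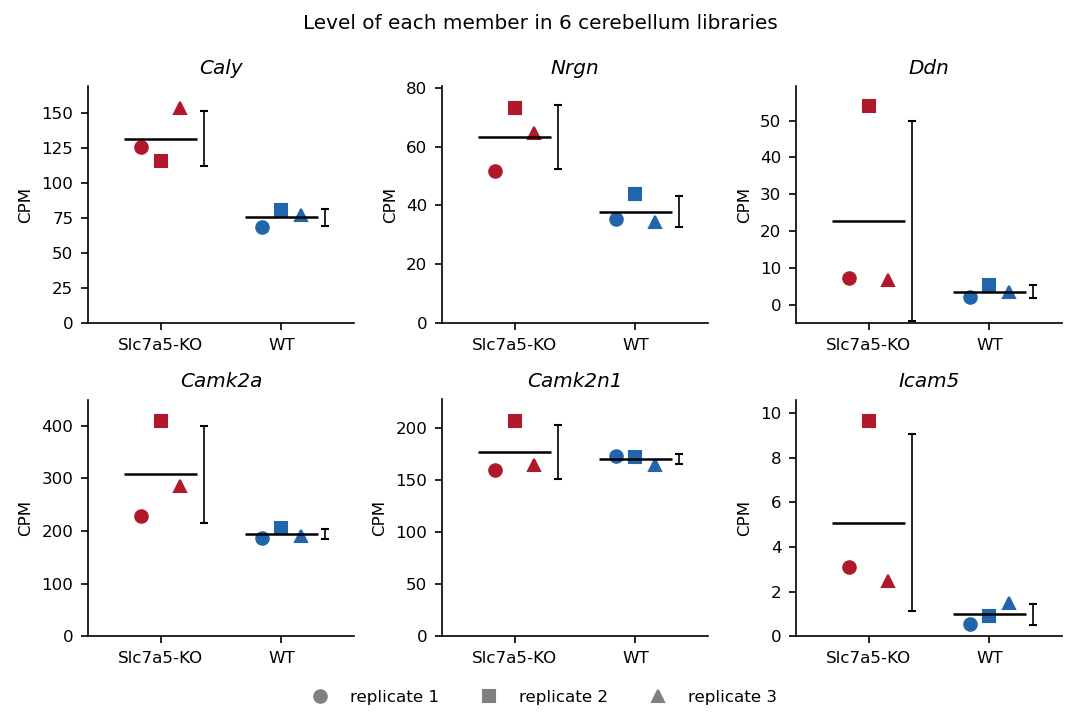
CPM of each gene (vertical axes, TMM-scaled, each with its own range) in the 3 libraries labelled Slc7a5-KO (left, red) and the 3 WT libraries (right, blue), with symbols for replicates, lines for means and bars for 1 SD. The groups are apart for 5 genes and overlap for Camk2n1, and Slc7a5-KO replicate 2 (square) is the highest library for every gene except Caly.

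In the authors' deposited table, made from the same libraries, Caly, Nrgn, Camk2a and Icam5 were listed under an adjusted p of 0.05, where 0.625% of 14561 genes were so listed as higher. The unshrunken log2 fold changes of the authors' deposited table were 0.80 for Caly, 0.73 for Nrgn, 0.66 for Camk2a and 0.06 for Camk2n1. For Ddn the authors' deposited table gives 2.65 unshrunken and 0.25 shrunken with no p-value, and for Icam5 2.38 unshrunken and 0.68 shrunken.

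Per length, Caly, Camk2n1, Nrgn and Camk2a were at alike levels, and Ddn and Icam5 far below them. Mean levels over the 6 libraries were 43.1 CPM per kilobase of exon for Caly, 39.0 for Camk2n1, 34.8 for Nrgn and 33.6 for Camk2a. Their ranges overlapped, running over all 4 from 23.6 to 64.1 CPM per kilobase, so neighbours in this order did not differ beyond their spread. Ddn averaged 3.47 CPM per kilobase (0.538 to 14.3) and Icam5 1.03 (0.192 to 3.27), and these ranges overlapped each other but not those of the other 4. Within every library, however, Ddn was above Icam5 per kilobase.

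Whether the 6 genes moved together across libraries was examined on deviations of log2 CPM from each group's mean, which take the difference between the groups out. The pooled correlation is not given, since the groups stood apart for 5 of the 6 genes. The deviations of Nrgn, Camk2a, Camk2n1, Ddn and Icam5 followed each other, with Pearson r of 0.40 to 0.94 over their 10 pairs (mean 0.78, n = 6 libraries). Caly did not follow them, with r of -0.58 to 0.095 over its 5 pairs (mean -0.32). Spearman's rho was 0.31 to 0.94 for the 10 pairs and -0.60 to -0.086 for the 5 with Caly. In exact permutation within groups (36 arrangements, 2-sided), the smallest p over the 15 pairs was 0.083 for Pearson's r, or 0.42 adjusted, and 0.056 for rho, or 0.66 adjusted, where the smallest possible was 0.028, so no pair passed.

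The pattern rested mostly on Slc7a5-KO replicate 2. There the deviations were 1.96 for Ddn, 1.17 for Icam5, 0.45 for Camk2a, 0.23 for Camk2n1 and 0.23 for Nrgn on the log2 scale, and -0.18 for Caly. Without that library the mean r was 0.25 over the 10 pairs and 0.56 over the 5 pairs with Caly, so the sign for Caly changed. With the 2 libraries farthest from the median of the first gene of each pair left out, the mean r over all 15 pairs was 0.46, against 0.41 with all 6 libraries. That mean joined unlike changes. The 5 pairs with Caly were then all above 0, at 0.14 to 0.90, and the other 10 spread down to -0.21, with 0.94 the highest. Within WT, replicate 2 was the highest library for Caly, Nrgn, Camk2a and Ddn, replicate 1 for Camk2n1 and replicate 3 for Icam5.

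**Figure D2:**
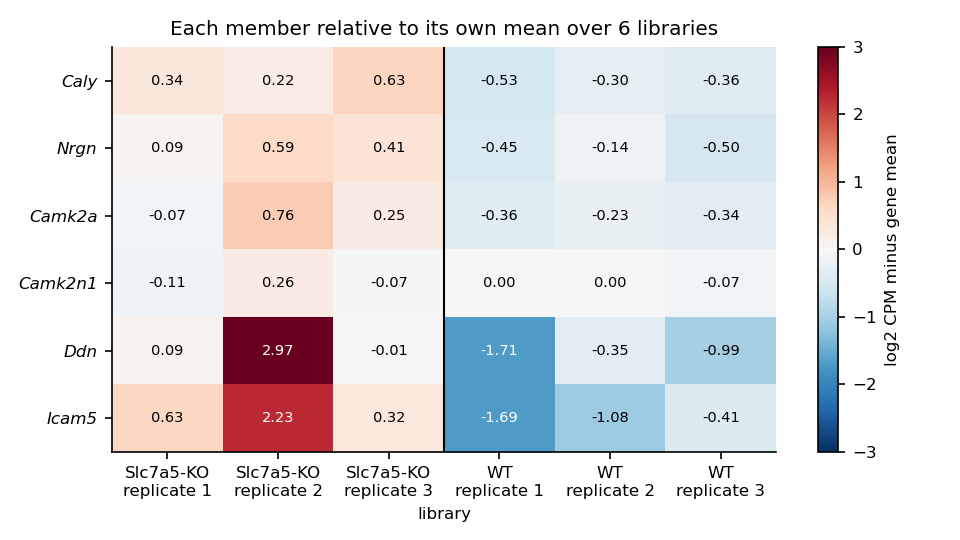
Log2 CPM of each gene (rows) minus its mean over the 6 libraries, by library (columns, Slc7a5-KO left of the line and WT right of it). Ddn and Icam5 reach 2.97 and 2.23 in Slc7a5-KO replicate 2, while Caly is highest, at 0.63, in Slc7a5-KO replicate 3.

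Markers that define forebrain tissue were mostly low or without reads. Of the 15 forebrain markers listed, 12, 13 and 6 had any read in Slc7a5-KO replicates 1 to 3 and 11, 7 and 6 in WT, with summed levels of 32.0, 25.7 and 17.9 CPM in Slc7a5-KO and of 23.6, 20.5 and 22.8 CPM in WT. Neurod6 made up most of each sum. Its level was 21.1, 13.8 and 10.7 CPM in Slc7a5-KO replicates 1 to 3 and 15.6, 14.3 and 17.6 CPM in WT. With Neurod6 set aside, the summed level was highest in Slc7a5-KO replicate 2. Lhx8 had no read in any library. Emx1, a cortical regulator, had 0, 13 and 0 reads in Slc7a5-KO replicates 1 to 3 and 19, 0 and 0 in WT. Lhx6, of forebrain interneurons, had 1, 19 and 0 reads in Slc7a5-KO replicates 1 to 3 and 14, 0 and 0 in WT. Slc7a5-KO replicate 2 and WT replicate 1 were thus the 2 libraries with more than 1 read of both Emx1 and Lhx6, and WT replicate 1 had the lowest WT level of Caly, Ddn, Camk2a and Icam5. Neurod6, Emx1 and Lhx6 were picked after their values were seen, and the part of carried-over forebrain tissue in the results was not tested.

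The summed levels of cell type markers varied between libraries of the same group. All 10 Purkinje cell markers were below 0 (median log2 -0.43), with 5 lower at an unadjusted p of 0.05, where 2.77% of all genes were, and none called. Leaving out any 1 library left 8 or all 10 below 0. Their sums were 5911, 4004 and 5155 CPM in Slc7a5-KO replicates 1 to 3 and 5724, 7016 and 6025 CPM in WT, and these overlapped. The 7 oligodendrocyte markers summed to 4128, 7086 and 5270 CPM in Slc7a5-KO replicates 1 to 3 and to 5927, 3956 and 5386 CPM in WT, and the 5 markers of the cerebellar nuclei to 203, 313 and 272 CPM in Slc7a5-KO and to 237, 163 and 237 CPM in WT. The 11 granule neuron markers summed to 6421, 4141 and 4121 CPM in Slc7a5-KO and to 4622, 6718 and 5305 CPM in WT, lowest in Slc7a5-KO replicates 2 and 3. The 8 markers of neurons in general summed to 3121, 3553 and 3342 CPM in Slc7a5-KO replicates 1 to 3 and to 3071, 3102 and 3225 CPM in WT. Markers of all these cells were present, and the 6 choroid plexus and ependyma markers summed to 2294, 41.7 and 4717 CPM in Slc7a5-KO replicates 1 to 3 and to 5102, 5547 and 2473 CPM in WT. The part of these differences in cell makeup in the levels of the 6 genes was not tested.

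**Figure D3:**
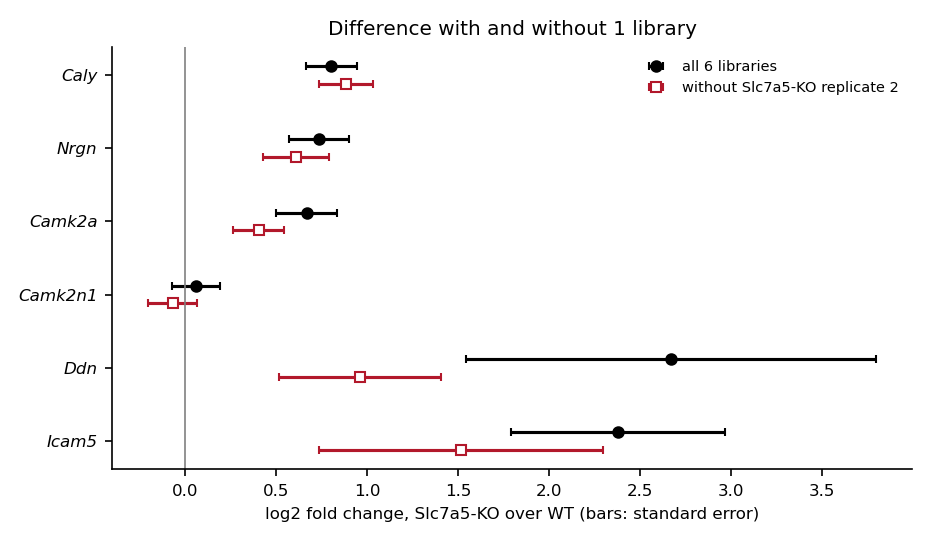
Log2 fold change of each gene, Slc7a5-KO over WT, with all 6 libraries (filled) and without Slc7a5-KO replicate 2 (open), with bars for 1 standard error. Caly is at 0.80 and 0.89, Ddn at 2.67 and 0.96 and Camk2n1 at 0.06 and -0.07.

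The close relatives of the 6 genes did not pass the test. Of 12 relatives, 9 were above 0 and 3 below, with a median log2 fold change of 0.19 (0.002 over all genes tested, 0.10 for the relatives without Slc7a5-KO replicate 2). At an unadjusted p of 0.05, 2 were higher, where 3.45% of all genes were. Nsg2, a vesicle protein of the same family as Caly, averaged 167 ± 25.7 CPM in Slc7a5-KO and 126 ± 4.08 CPM in WT (log2 0.41 ± 0.13, edgeR adjusted p = 0.59). Nsg1, the other member of that family, averaged 255 ± 14.0 CPM in Slc7a5-KO and 262 ± 11.3 CPM in WT (log2 -0.04 ± 0.12). Among IQ motif proteins like neurogranin, Gap43 of growth cones had 0.27 ± 0.12 (edgeR adjusted p = 0.78), Pcp4 -0.33 ± 0.16 and Pcp4l1 -0.18 ± 0.15 on the log2 scale. The other CaMKII subunits Camk2b, Camk2d and Camk2g had 0.14 ± 0.13, 0.05 ± 0.13 and 0.04 ± 0.15, and the second inhibitor Camk2n2 had 0.25 ± 0.14. Of the adhesion molecules related to Icam5, Icam2 had 0.47 ± 0.28, Icam1 0.94 ± 0.48 and Icam4 0.95 ± 1.45, with Icam4 under 1 CPM in every library.

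Ratios of reads within a library do not depend on scaling. They reuse the reads by which the members were chosen, so groups that stand apart here are a description only. Camk2a reads per read of Camk2b, the beta subunit, were 0.508, 0.866 and 0.6745 in Slc7a5-KO replicates 1 to 3 and 0.5015, 0.4865 and 0.440 in WT. The groups did not overlap, but Slc7a5-KO replicate 1 was close to the highest WT library. Caly reads per read of Nsg1 were 0.470, 0.482 and 0.5995 in Slc7a5-KO replicates 1 to 3 and 0.260, 0.2965 and 0.308 in WT, well apart. Per read of Nsg2 the values were 0.858, 0.724 and 0.785 in Slc7a5-KO replicates 1 to 3 and 0.527, 0.6625 and 0.608 in WT, apart by less. Caly reads per read of Nrgn were 2.43, 1.575 and 2.385 in Slc7a5-KO replicates 1 to 3 and 1.93, 1.84 and 2.25 in WT, and here the groups overlapped. Caly and Nrgn reads per read of Camk2a and Icam5 reads per read of Icam2 overlapped between the groups too. Nrgn reads per read of Pcp4 and of Gap43 were higher in every Slc7a5-KO library than in any WT library. Camk2n1 reads per read of Camk2n2 were lower in every Slc7a5-KO library. They were 1.36, 1.27 and 1.32 in Slc7a5-KO replicates 1 to 3 and 1.59, 1.385 and 1.51 in WT.

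The wider calmodulin and CaMKII pathway was not called in either direction. Of its 23 other genes, 13 were above 0 and 10 below (median log2 0.05), with 3 higher and 2 lower at an unadjusted p of 0.05. Over all genes tested, 3.45% were higher and 2.77% lower at that threshold. Camkv, a kinase-like protein that binds calmodulin, was at 31.8, 65.7 and 53.7 CPM in Slc7a5-KO replicates 1 to 3 and at 26.7, 35.1 and 28.0 CPM in WT (log2 0.75 ± 0.22, edgeR adjusted p = 0.50). Without Slc7a5-KO replicate 1 Camkv passed (edgeR adjusted p = 0.034). Pde1b, a calmodulin-activated phosphodiesterase, had 0.40 ± 0.15 and Calm2, a calmodulin gene, -0.34 ± 0.15 (edgeR adjusted p = 0.71 and 0.76).

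Dendritic scaffold and postsynaptic density genes were mostly above 0. Of 28, 24 were above 0 and 4 below, with a median log2 fold change of 0.125, and none was called. At an unadjusted p of 0.05, 6 were higher and 1 lower, where 3.45% and 2.77% of all genes were. Leaving out Slc7a5-KO replicate 2 left 1 higher, and leaving out WT replicate 3 left 0. For 17 of the 28 the highest of the 6 libraries was Slc7a5-KO replicate 2, as for 5 of the 6 members, where 15.5% of all genes had their highest level there. Baiap2, an actin regulator of spines, differed by 0.36 ± 0.15 on the log2 scale (edgeR adjusted p = 0.74). Homer3, a scaffold that is also a Purkinje cell marker, went the other way, on average at 106 ± 15.6 CPM in Slc7a5-KO and 147 ± 11.4 CPM in WT (log2 -0.47 ± 0.14, edgeR adjusted p = 0.47).

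Forebrain-enriched neuronal genes outside the 6 were not called either. Of 30, 21 were above 0 and 9 below, with a median log2 fold change of 0.22. At an unadjusted p of 0.05, 8 were higher (26.7%) and 0 lower, where 3.45% and 2.77% of all genes were. Without Slc7a5-KO replicate 2 the median was 0.06, with 6 higher and 1 lower. In 13 of the 30 that library was the highest. Drd2, a dopamine receptor, was at 9.72, 12.3 and 22.4 CPM in Slc7a5-KO replicates 1 to 3 and at 8.39, 7.15 and 6.48 CPM in WT (log2 1.00 ± 0.30, edgeR adjusted p = 0.52), and its highest library was replicate 3, as for Caly. Wfs1, a protein of the endoplasmic reticulum, was on average at 79.0 ± 3.75 CPM in Slc7a5-KO and 58.0 ± 10.4 CPM in WT (log2 0.44 ± 0.15, edgeR adjusted p = 0.61), and Lmo3, a transcription cofactor, had 0.61 ± 0.23 (edgeR adjusted p = 0.68).

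**Figure D4:**
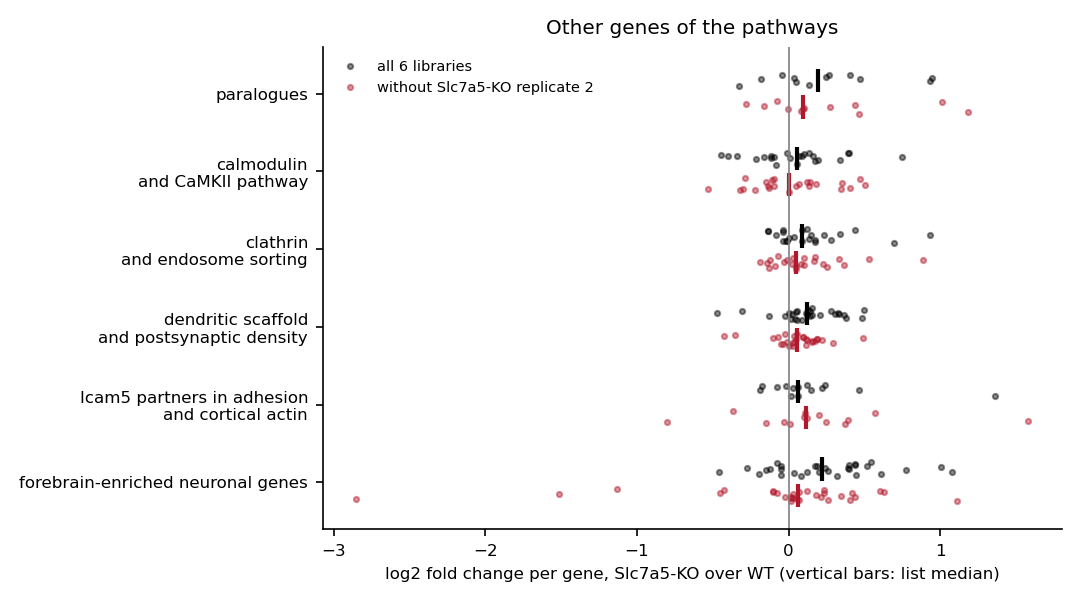
Log2 fold change of each gene (points), Slc7a5-KO over WT, in 6 lists of related genes, with all libraries (black) and with Slc7a5-KO replicate 2 left out (red), and bars for the list medians. The forebrain-enriched list has a median of 0.22 with all libraries and 0.06 without that library, and its 3 lowest points without it are Kcnv1, Crym and Lamp5 (picked after their values were seen) at -2.85, -1.51 and -1.13. The Kcnv1 and Crym values rest on few reads, 8 and 4 for Kcnv1 and 12 and 0 for Crym in Slc7a5-KO replicates 1 and 3.

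Clathrin and endosome genes, the machinery that calcyon binds, centred near 0. Of 23, 15 were above 0 and 8 below (median log2 0.09), and none was called. At an unadjusted p of 0.05, 1 was higher (4.35%, against 3.45% of all genes) and 0 lower. The 1 higher gene was Ap3b2, a subunit of the neuronal AP-3 adaptor, on average at 142 ± 15.0 CPM in Slc7a5-KO and 112 ± 7.78 CPM in WT (log2 0.34 ± 0.13, edgeR adjusted p = 0.70). The clathrin light chain gene Cltb had 0.28 ± 0.14 (edgeR adjusted p = 0.82) and the dopamine receptor Drd5 0.70 ± 0.38 (edgeR adjusted p = 0.85), from 4.43, 4.41 and 9.70 CPM in Slc7a5-KO replicates 1 to 3 and 3.87, 3.65 and 3.80 CPM in WT.

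Partners of telencephalin in adhesion and cortical actin were not called. Of 14, 10 were above 0 and 4 below (median log2 0.06). At an unadjusted p of 0.05, 1 was higher (7.14%, against 3.45% of all genes) and 0 lower. Itgb2, the beta chain of leukocyte integrin, was at 3.41, 3.36 and 8.45 CPM in Slc7a5-KO replicates 1 to 3 and at 2.46, 2.02 and 1.38 CPM in WT (log2 1.36 ± 0.48, edgeR adjusted p = 0.65). Itgb1 had -0.17 ± 0.15 and Msn, moesin, 0.22 ± 0.19 (edgeR adjusted p = 0.94 for both). For 0 of the 14 was Slc7a5-KO replicate 2 the highest library. Microglia also express Itgb2, and the 6 microglia markers summed to 187, 191 and 217 CPM in Slc7a5-KO replicates 1 to 3 and to 162, 176 and 129 CPM in WT, with no overlap. Of these 6 markers, 5 were above 0 and 1 below (median log2 0.38), and none was called. At an unadjusted p of 0.05, 3 were higher, where 3.45% of all genes were. The part of microglia in the level of Itgb2 was not tested.

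The genes most alike to the 6 in pattern were sought among 11553 genes with a mean of at least 5 CPM, by Pearson r of log2 CPM over the 6 libraries, a description in which high values arise among so many genes. This r includes the difference between the groups, by which the members were chosen. All genes named from this search were higher in every Slc7a5-KO library than in any WT library. Rhbdd2 (r = 0.986), Arl2 (0.984), Vgf (0.973), Maob (0.973) and Rpl8 (0.971) were closest to the mean of the 6 genes, where the median gene had -0.006. Vgf, a secreted neuropeptide precursor, was at 33.7, 79.5 and 45.1 CPM in Slc7a5-KO replicates 1 to 3 and at 18.7, 19.7 and 24.4 CPM in WT (log2 1.33 ± 0.26, edgeR adjusted p = 0.16), with replicate 2 the highest. The genes closest to Caly alone were Gng4 (r = 0.990), Ttc4 (0.989), Gatc (0.989), Ankrd34a (0.989) and Helz2 (0.988), a different set of 5. Gng4, a G-protein gamma subunit, was at 59.1, 59.0 and 77.3 CPM in Slc7a5-KO replicates 1 to 3 and at 37.7, 41.9 and 43.0 CPM in WT (log2 0.67 ± 0.15, edgeR adjusted p = 0.21), with replicate 3 the highest as for Caly.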

How the data were processed

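Cerebellum RNA was sequenced in 6 libraries with the SENSE mRNA-Seq kit V2, per the labels' protocols. The deposited values are raw read counts per gene, 1 table per library. The submitters' processing notes name STAR 2.5.4 and the build GRCm38, without their roles. No source used here gives the annotation release. The reverse-strand count was used, and it held 94.8% to 95.8% of stranded gene reads. Reads of no gene or several genes (19.5% to 22.2%) were left out.

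The authors' deposited comparison table has the columns of DESeq2, and DESeq2 1.10.1 is named in the submitters' processing notes. Per the file headers it holds a mean normalised count (signal), log2 fold changes with their standard error, a Wald score, and raw and adjusted p-values (p-value columns).

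Symbols were matched for 46488 of 46983 genes, with coordinates and exon lengths from GENCODE M21. Genes passing filterByExpr (minimum count 10, minimum total count 15) numbered 16851. Libraries were TMM-scaled, and genes were tested by edgeR 4.0.16 in R 4.3.3 (quasi-likelihood, robust, 2-sided, Benjamini-Hochberg, false discovery rate 0.05). Log2 CPM used a prior count of 2. The procedure was tested on simulated data. The labels give each library a number of its own but do not state separate animals, so p-values measure the spread between these libraries. The biological coefficient of variation was 31.6%.

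The members and lists were chosen with earlier results of these data known. Named genes are the members, their relatives, the 3 genes of smallest p in each other list, and the 5 most alike in pattern to the members' mean and to Caly. Those added after their values were seen are said to be so, and some named by this rule are not reported here. The results were recomputed under other scalings, no filter, both strands together, DESeq2 1.42.0, limma-voom 3.58.1, a replicate block, a sex term and leaving out each library.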

Additional observations from a re-analysis of the deposited data

How the results depend on the processing

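The 6 log2 fold changes kept their direction under every scaling, filter, count column and test tried, and under leaving out any 1 library, except Camk2n1, which was at -0.07 without Slc7a5-KO replicate 2. The median of the 6 was 0.77, and 0.716 to 0.859 when 1 library was left out. The number of the 6 called by edgeR was 1. It was 4 with DESeq2 and 4 with no filter beyond 1 read (Caly, Nrgn, Camk2a and Icam5 in both), and 0 with limma-voom, with a sex term and with a replicate block. Leaving out 1 library gave 0 to 2. Over all genes, 8 were called, against 46 with DESeq2, 71 with no filter and 16 with a sex term, and 3 to 20 when 1 library was left out.

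The mean r of deviations over 15 pairs was 0.41, and 0.258 when libraries were scaled by their totals only. When 1 library was left out it ran from 0.305 to 0.497 over all pairs, from -0.556 to 0.564 over the 5 pairs with Caly and from 0.247 to 0.87 over the other 10. The list medians then ran from 0.097 to 0.223 for the relatives, -0.011 to 0.091 for calmodulin and CaMKII genes, 0.041 to 0.142 for clathrin and endosome genes, 0.055 to 0.155 for dendritic scaffold genes, 0.015 to 0.143 for partners of Icam5 and 0.063 to 0.306 for forebrain-enriched genes. The causes of these changes were not tested.

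No pairing of the libraries by replicate number was seen, though correlations near 0 with 3 libraries per group cannot exclude one. Deviations of same-numbered libraries over all genes had correlations of -0.038, -0.059 and -0.027, and with the replicate block edgeR called 6 genes over all and 0 of the 6 members. Depth limits Icam5 most, at 20 to 41 reads per WT library.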

Other observations

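Some other neuronal genes of the lists, chosen after their values were seen, shared the high level of Nrgn, Camk2a, Ddn and Icam5 in Slc7a5-KO replicate 2, and none passed the test with all 6 libraries. Begain, a scaffold protein of the postsynaptic density, was at 32.6, 68.8 and 45.9 CPM in Slc7a5-KO replicates 1 to 3 and at 37.6, 30.6 and 36.9 CPM in WT (log2 0.49 ± 0.22, edgeR adjusted p = 0.77). Ptk2b, a calcium-responsive tyrosine kinase, was at 25.8, 45.1 and 15.95 CPM in Slc7a5-KO replicates 1 to 3 and at 17.3, 22.8 and 19.7 CPM in WT (log2 0.54 ± 0.29, edgeR adjusted p = 0.85). Cpne6, a calcium-binding copine, was at 37.1, 68.3 and 57.6 CPM in Slc7a5-KO replicates 1 to 3 and at 39.7, 36.7 and 43.7 CPM in WT (log2 0.44 ± 0.19, edgeR adjusted p = 0.76). Unlike Caly, Nrgn, Camk2a, Ddn and Icam5, these 3 overlapped between the groups. Shank1, Psd and Rasgrf2, also picked after their values were seen, were highest in Slc7a5-KO replicate 2 too, and their groups did not overlap.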
